A study of Mus musculus with 2 samples.

Results

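The genes described here are the annotated mouse genes whose symbol begins with Nduf, without names that contain -ps. They encode subunits and assembly factors of respiratory complex I, together with Ndufa4 and its relative Ndufa4l2, which are now assigned to complex IV. Of 16910 annotated nuclear genes with at least 1 read, 47 fell under this rule, and 49 such names exist in the GENCODE M21 annotation. All transcript models of a gene were counted, whether annotated or new. The rule used names alone and no measured value.

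Complex I (NADH:ubiquinone oxidoreductase) is the entry point of the mitochondrial respiratory chain. Its N module takes electrons from NADH, its Q module passes them to ubiquinone, and its membrane arm pumps protons. A set of core subunits carries out catalysis, part of it encoded by the mitochondrial chromosome, and accessory subunits surround and stabilise the core. Assembly factors build the complex and are not part of the finished enzyme. In the adrenal cortex, mitochondria also hold the first and last steps of glucocorticoid synthesis, which draw on mitochondrial reducing power.

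The adrenal glands came from female mice aged 2 months of the cross labelled B6CASTF1/J, and total RNA was read by long-read sequencing in 2 libraries of 1 group. No treatment, second genotype or second time point is given. The labels call the libraries biological replicates 1 and 2, but both library labels carry the same animal number, the biosample labels carry different ones, and 1 donor identifier is shared. The spread between them may therefore be technical, and every p-value below compares these 2 libraries and not conditions.

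Replicate 1 held 1277310 reads and replicate 2 held 520388, of which 1209457 and 502655 fell on annotated nuclear genes. Levels are CPM, read counts scaled to the same nuclear total in both libraries. Each long read was counted once, so CPM was not divided by length. Whether reads are copies of the same molecule was not tested, and p-values, like intervals, cover counting error only. Summed CPM of the 6 cortex markers was 63522 in replicate 1 and 82956 in replicate 2, and of the 5 medulla markers 11580 and 6677. Most of the rise in the cortex sum came from Cyp21a1 (14022 and 28073 CPM), while Cyp11a1 stood at 20228 and 19861. In the medulla, Chga, Chgb and Pnmt were lower in replicate 2, whereas Dbh stood at 116 and 177 CPM and Th at 1307 and 1371. The 3 brown adipocyte markers, from a tissue rich in mitochondria, summed to 909 and 1552 CPM, with none at 0. The 4 general adipocyte markers summed to 7061 and 6830 CPM, with Car3 at 4046 and 4407 and Cfd at 2480 and 1910. The part of fat in the Nduf levels was not tested. The 3 kidney tubule markers summed to 4.96 and 1.99 CPM, close to the 2.48 and 5.97 CPM that a count of 0 allows at 3 counts per library. In whole glands, fewer cells of a type and less RNA per cell cannot be told apart.

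The Nduf genes took 13412 reads in replicate 1 and 4093 in replicate 2, which is 11089 and 8143 CPM. Their share of nuclear reads was thus 1.11% and 0.814%. A total of 46 genes had at least 3 reads in each library. The exception was Ndufb4c, annotated as a processed pseudogene, with 1 read in replicate 1 and none in replicate 2. Across the 47 genes, log2(CPM + 1) in the 2 libraries had a Pearson correlation of 0.961 and a Spearman correlation of 0.937. In both libraries, 32 genes exceeded 100 CPM.

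Every core subunit named here was among the 20 most abundant Nduf genes by CPM. In the N module, Ndufs1, which carries iron-sulfur clusters on the path from NADH, stood at 488 CPM in replicate 1 and 491 in replicate 2 (490 ± 2.5, SD, n = 2). Ndufv1, which binds NADH and flavin, stood at 448 and 513 CPM, and Ndufv2, its iron-sulfur partner, at 207 and 245. Ndufv2 was thus the lowest of these by CPM, 2.17-fold below Ndufs1 in the mean.

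In the Q module, Ndufs3 stood at 382 CPM in replicate 1 and 288 in replicate 2. Ndufs8, which holds a pair of iron-sulfur clusters, stood at 333 and 300 CPM, and Ndufs7, which holds the last cluster before ubiquinone, at 355 and 269. The mean levels of Ndufs3, Ndufs8 and Ndufs7 lay between 312 and 335 CPM, and their libraries overlapped, so these 3 neighbours in the order did not differ beyond their spread.

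The 29 accessory subunits ranged in mean CPM from 76.0 for Ndufs5 to 372 for Ndufa10. Ndufa10, of the membrane arm next to the Q module, stood at 333 CPM in replicate 1 and 410 in replicate 2. Ndufb9, of the distal membrane arm, stood at 461 and 261 CPM, and Ndufc1 at 443 and 235. The libraries of Ndufb9 and Ndufc1 lay farther apart than their means did. Over the 36 listed subunits with a nuclear gene, the highest mean CPM was 7.09 times the lowest.

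The 8 Ndufaf assembly factors lay below every subunit in mean CPM, from 10.9 to 58.4. The lowest subunit, Ndufs5, was 1.30 times the highest assembly factor, Ndufaf7, and these neighbours overlapped across libraries (94.3 and 57.7 CPM against 71.1 and 45.8). Ndufaf7, a methyltransferase, was followed by Ndufaf8, the partner of Ndufaf5, at 63.7 and 29.8 CPM. Ndufaf3 and Ndufaf4, which act together on the Q module, were close to each other, at 36.4 and 47.8 CPM and at 34.7 and 45.8 CPM. Ndufaf1, part of the membrane-arm assembly complex, stood at 27.3 and 37.8 CPM.

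The 3 lowest assembly factors were Ndufaf5, an arginine hydroxylase of NDUFS7 in human cells, at 14.1 and 19.9 CPM, Ndufaf2, a relative of Ndufa12, at 17.4 and 15.9, and Ndufaf6 at 9.92 and 11.9. They rest on between 6 and 21 reads per library, and their order is not resolved. Of 11 other complex I assembly genes, 10 had at least 10 reads over both libraries. Tmem70, an assembly factor also of ATP synthase, was the highest of these at 234 and 223 CPM, and Timmdc1 the lowest at 9.92 and 7.96 CPM. None of the 10 differed between the libraries at an adjusted p under 0.05 by Fisher's exact test. Over all tested genes, 8.58% were lower and 9.34% higher in replicate 2 at that threshold. Some of the 10 had few reads, such as Timmdc1 (12 and 4) and Nubpl (17 and 6), so a difference could be missed.

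Ndufa4 had the highest mean CPM of all Nduf names, at 714 in replicate 1 and 495 in replicate 2. Its relative Ndufa4l2, known as a target of hypoxia signalling, stood at 28.1 and 25.9 CPM, 22.4-fold lower in the mean. In CPM per kilobase of the most abundant model, Ndufa4 again led, at 991, but only Ndufa4 and Ndufb9 of the 10 highest genes by CPM were also among the 10 highest per kilobase. The long core transcript of Ndufs1 moved to rank 26. The mitochondrial chromosome's own subunits were barely sampled, with 29 and 27 reads for mt-Nd1, 91 and 21 for mt-Nd2, and 35 and 18 for mt-Nd4.

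**Figure D1:**
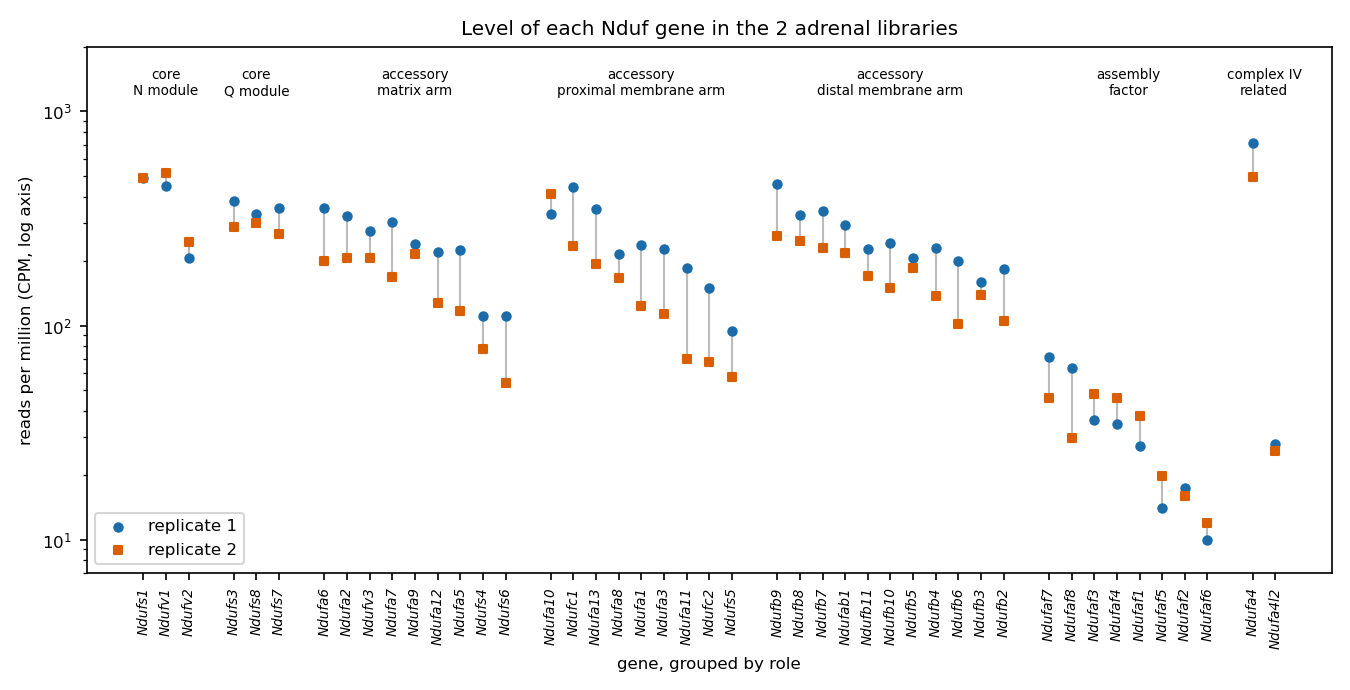
CPM (log axis) of 45 Nduf genes grouped by role, with 1 point per library joined by a line. Ndufa4 and most core subunits lie highest, assembly factors between 9.92 and 71.1 CPM lie below most subunits, and most accessory subunits are lower in replicate 2.

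Most Nduf genes had a lower level in replicate 2. The log2 ratio of replicate 2 over replicate 1, with 0.5 reads added, was below 0 in 37 of 46 tested genes, with a median of -0.46, against -0.06 over all 10170 tested genes. Fisher's exact test (two-sided, each gene against all other nuclear reads, Benjamini-Hochberg adjustment over all genes) called 4 Nduf genes as lower in replicate 2. The rule asked for an adjusted p under 0.05 and at least 2-fold, and 0 were called as higher. Across all tested genes, 3.59% were lower and 5.96% higher by that rule. Under 1000 bases it called 103 of 1091 tested genes as lower, and 4 of 27 Nduf genes. At any fold, 24 Nduf genes were lower and 0 higher, against 8.58% and 9.34% of all genes. Under 1000 bases, 251 of 1091 genes and 19 of 27 Nduf genes were lower at any fold.

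The 4 genes lower by at least 2-fold were 3 accessory subunits and 1 assembly factor. Ndufa11 (chromosome 17), of the membrane arm, had 224 and 35 reads, or 185 and 69.6 CPM, a log2 ratio of -1.39 (SE 0.26, Fisher's exact test, adjusted p = 1.01e-07). Ndufc2 (chromosome 7) had 181 and 34 reads, or 150 and 67.6 CPM, a log2 ratio of -1.13 (SE 0.27, Fisher's exact test, adjusted p = 0.000101). Ndufs6 (chromosome 13), a zinc-binding subunit of the matrix arm, had 134 and 27 reads, or 111 and 53.7 CPM, a log2 ratio of -1.02 (SE 0.30, Fisher's exact test, adjusted p = 0.00359), which was not called after the deeper library was thinned (-0.79). Ndufaf8 (chromosome 11) had 77 and 15 reads and a log2 ratio of -1.06 (SE 0.40, Fisher's exact test, adjusted p = 0.0349, and 0.0574 when genes with 1 read were tested too). Just outside the 2-fold rule lay Ndufa3 at -0.99, Ndufb6 at -0.97 and Ndufa1 at -0.94. All are short transcripts of 419 to 781 bases.

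The medians of these ratios varied with role. The 3 core N genes had a median log2 ratio of 0.20, and none was significant at any fold. The 4 core Q genes had a median of -0.30, with Ndufs3 and Ndufs7 lower at any fold. Medians were -0.78 for the 9 matrix accessory subunits, -0.91 for the 9 proximal membrane accessory subunits and -0.56 for the 11 distal ones, with 6, 6 and 8 genes lower at any fold. The assembly factors had a median of 0.36, on few reads, with 1 of 8 lower. Of all tested genes, 8.58% were lower at any fold, and of those under 1000 bases 251 of 1091 were. No test between roles was made.

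Transcript length moved with the ratio. Median length was 1623 bases for the 7 core genes and 704 for the 29 accessory genes. Among all tested genes, the median log2 ratio was -0.51 below 1000 bases (n = 1091), -0.03 from there to below 2000 bases (n = 2626), and 0.01 above (n = 6453). The Nduf genes of the same classes had medians of -0.70 (n = 27), -0.16 (n = 15) and 0.16 (n = 4). Across the 46 Nduf genes, the ratio and log2 length had a Pearson correlation of 0.548 (Spearman 0.581), a description over genes that share both libraries.

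When the median of all genes of like length (20 bins) was subtracted, a step chosen after seeing the data, the median of the Nduf genes was -0.10. No Nduf gene then passed 2-fold, with Ndufa11 at -0.76 and Ndufaf8 at -0.63, and the core median turned from -0.15 to 0.04. The share of all genes that passed 2-fold after this step was not computed. The accessory median was still -0.28, from -0.73, and the lowest ratios after the step were those of Ndufb2 (-0.83) and Ndufc1 (-0.81). Ndufb2 was binned by its model of 4371 bases, with 113 and 34 reads. Its model of 455 bases had 91 and 15 reads, and the ratio in a bin of short genes was not computed. Nuclear subunits of complexes II to V, which have a median length of 722 bases, had a median ratio of -0.47 before this step (n = 44), with 0 lower by 2-fold and 25 lower at any fold. The summed brown adipocyte markers were higher in replicate 2 and 3 of the 5 medulla markers lower, as given above, and their part in the Nduf ratios was not tested.

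**Figure D2:**
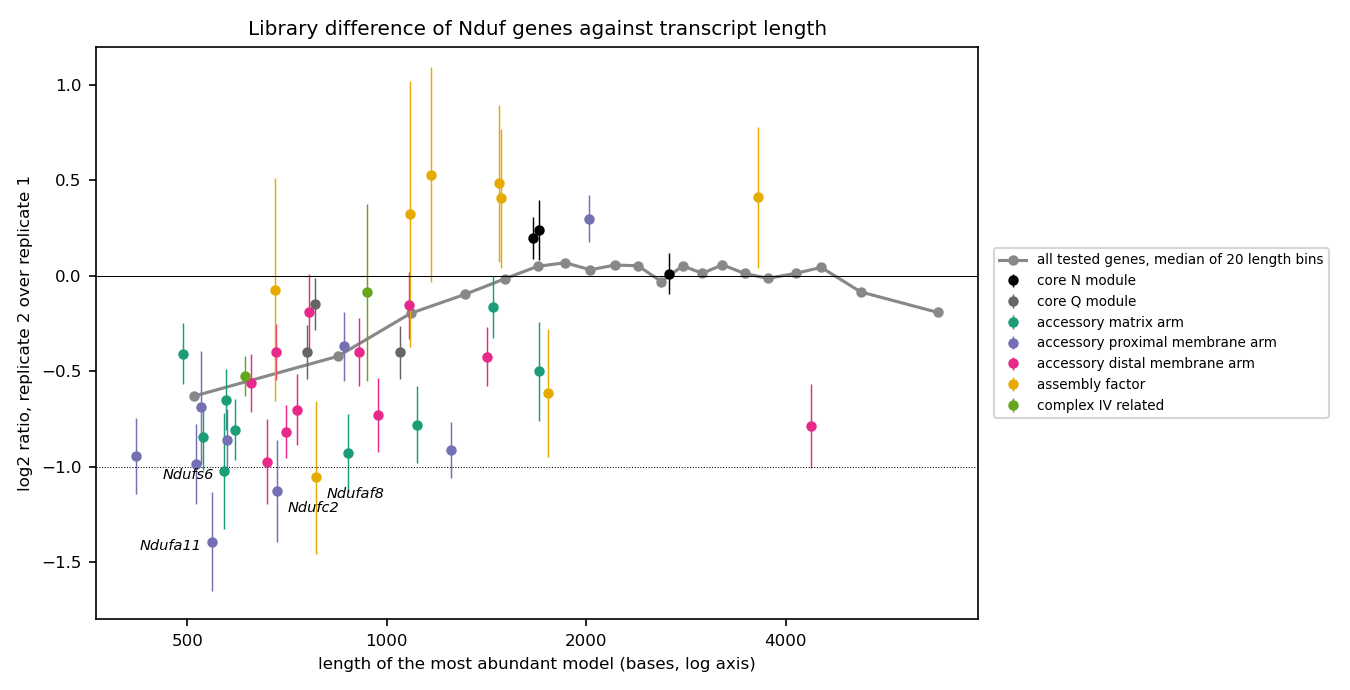
Log2 ratio of replicate 2 over replicate 1 against the length of the most abundant model (log axis) for 45 Nduf genes, with bars of 1 counting SE, and the medians of all tested genes in 20 length bins in grey. The 4 named genes lie below the dotted 2-fold line, and the grey line falls from near 0 to -0.63 at the shortest transcripts.

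Promoters of the Nduf genes were searched for 3 motifs known from nuclear genes of the respiratory chain, in windows of 250 bases before to 50 after the start from RefSeq (GRCm38.p6), on both strands. Windows were found for 40 of the 47 genes. The NRF1 motif GCGCANGCGC was in 9 of these genes, or 22.5%, against 5.19% of 27025 genes with a window. The YY1 motif AAGATGGC was in 8, or 20%, against 3.19%, and the ETS motif CCGGAAG in 6, or 15%, against 9.93%. No matches of different motifs overlapped. A match is a string of letters, not a measured binding site.

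Ndufs6 and Ndufaf8, both among the 4 genes above, were the only Nduf genes whose window held a pair of the motifs. Their windows are printed because these 2 carry both a called ratio and paired motifs, with the matches in capitals. Neither ratio was called in every setting, and no link between the motifs and the ratios was tested. The Ndufs6 window is chr13:73328433-73328732 on the minus strand, and its first match is the NRF1 motif read on the opposite strand, the second the YY1 motif. This YY1 match contains the annotated start codon of Ndufs6-201, whose coding sequence begins at position 73328446.
Ndufs6 promoter: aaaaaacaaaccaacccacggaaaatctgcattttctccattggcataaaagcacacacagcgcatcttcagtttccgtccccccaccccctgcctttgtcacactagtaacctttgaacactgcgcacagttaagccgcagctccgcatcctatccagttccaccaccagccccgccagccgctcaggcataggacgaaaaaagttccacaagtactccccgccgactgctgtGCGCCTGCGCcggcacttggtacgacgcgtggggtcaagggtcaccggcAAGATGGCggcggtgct
The Ndufaf8 window is chr11:120098684-120098983 on the plus strand, with an ETS match followed by a YY1 match.
Ndufaf8 promoter: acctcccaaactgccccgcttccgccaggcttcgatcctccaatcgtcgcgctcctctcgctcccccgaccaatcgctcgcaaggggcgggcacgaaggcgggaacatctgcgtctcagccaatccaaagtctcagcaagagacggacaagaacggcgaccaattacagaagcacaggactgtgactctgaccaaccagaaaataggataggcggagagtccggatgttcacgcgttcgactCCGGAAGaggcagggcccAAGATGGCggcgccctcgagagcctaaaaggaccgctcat

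Most Nduf reads fell in models of annotated transcripts. Models that matched an annotated transcript held 86.5% of Nduf reads in replicate 1 (exact Clopper-Pearson 95% interval 86.0 to 87.1) and 86.7% in replicate 2 (85.7 to 87.8). Over all annotated nuclear genes this share was 76.5% and 81.8%. It was 89.7% and 91.9% for nuclear genes of complexes II to V, and 84.4% and 89.2% for mitochondrial ribosomal protein genes. A high share was thus not particular to the Nduf genes. Their median length was 868 bases, against 2499 over all tested genes, and the part of length in this share was not tested. Incomplete splice matches, which hold some consecutive exons of an annotated transcript or its last exon alone, made up 9.36% and 8.33%. New combinations of known splice sites made up 2.17% and 2.81%, and chains with a new site 1.28% and 1.86%. Annotated protein-coding transcripts alone took 85.3% and 85.5% of Nduf reads, and annotated targets of nonsense-mediated decay 0.380% and 0.269%.

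In 32 Nduf genes, both libraries held 50 reads or more. Their main transcript was the most abundant annotated or new spliced model, and its share was taken of all reads of the gene. Incomplete matches could not be the main transcript. Ndufa13, whose reads were nearly all incomplete matches, was thus represented by a new chain with 1 of 425 and 0 of 97 reads. The median of the mean share was 92.1%, against 82.8% over 2098 genes, and 18 of the 32 exceeded 90%. By Fisher's exact test with adjustment over all genes, at least 10 percentage points and an adjusted p under 0.05, 2 of 32 differed between the libraries, Ndufv3 and Ndufa4. Over all genes, 16.5% did. With incomplete matches and genomic reads left out of the denominator, 1 of 29 Nduf genes and 0.795% of all genes were called, so the share of Nduf genes lay below that of all genes in one setting and above it in the other.

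**Figure D3:**
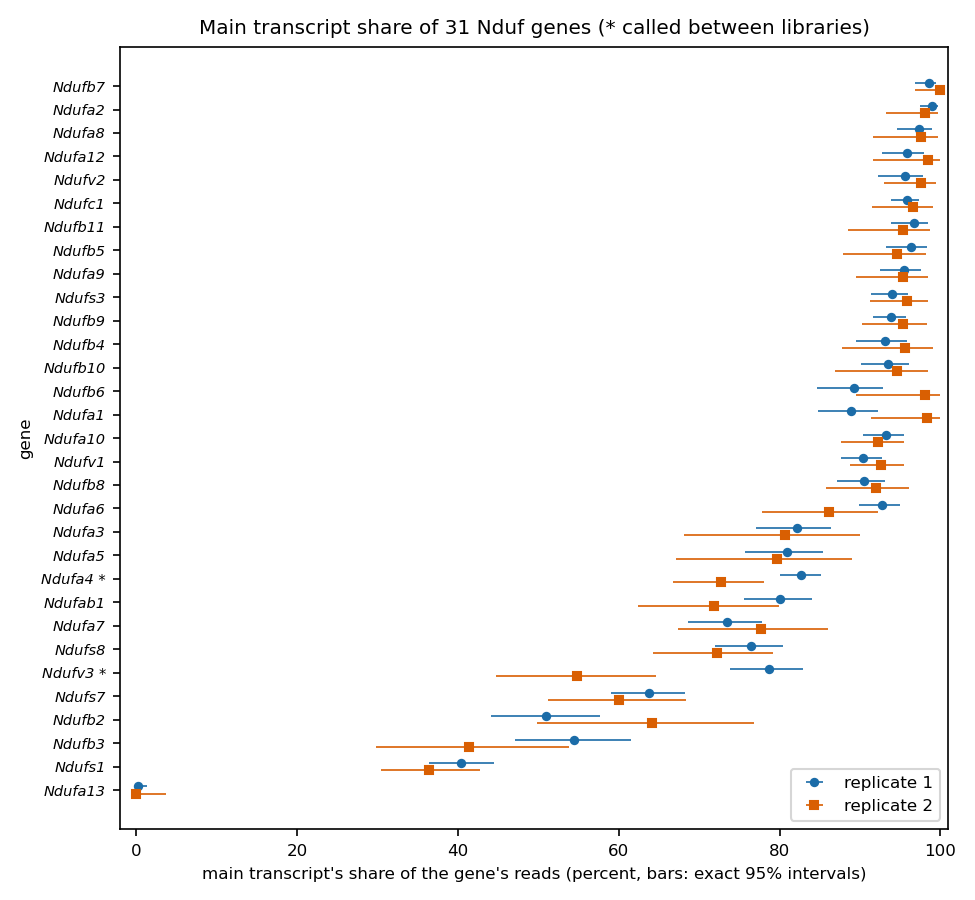
Share of a gene's reads in its main transcript (percent) for 31 Nduf genes, with 1 point per library and exact 95% intervals. Ndufa13 is near 0, since incomplete matches could not be the main transcript and its drawn chain held 1 of 425 and 0 of 97 reads. Ndufs1 is near 38.4% in the mean, while 18 genes exceed 90%.

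Ndufv3, an accessory subunit next to the flavin site, was made in a short and a long form. The short form Ndufv3-202, of 493 bases with 104 codons, had 262 of 333 reads in replicate 1, or 78.7% (interval 73.9 to 83.0), and 57 of 104 in replicate 2, or 54.8% (44.7 to 64.6). The long form Ndufv3-201, of 1582 bases with 468 codons, had 60 and 44 reads. The share of the short form fell by 23.9 percentage points between the libraries (Fisher's exact test, adjusted p = 5.20e-05), and the intervals did not overlap. In level, the short form went from 217 to 113 CPM and the long form from 49.6 to 87.5 CPM.

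The forms differ by exon 3 of the long form, at chr17:31527310-31528401 on the plus strand, a coding exon of 1092 bases whose length is a multiple of 3. Of reads that crossed the donor of exon 2, 19.0% entered exon 3 in replicate 1 (interval 14.9 to 23.6) and 43.6% in replicate 2 (33.7 to 53.8). Short and long protein forms of NDUFV3 are known in mammals. The short form is also one of the shortest Nduf transcripts, and short transcripts were lower in replicate 2, and the part of length in the change of share was not tested. The junctions that tell the forms apart are printed from the M21 transcripts (mm10), with bases of exon 3 in capitals.
Ndufv3 exon 3 start: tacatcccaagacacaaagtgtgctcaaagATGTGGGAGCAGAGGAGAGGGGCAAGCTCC
Ndufv3 exon 3 end: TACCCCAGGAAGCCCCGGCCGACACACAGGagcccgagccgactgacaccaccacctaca
Ndufv3 exon 3 skipped: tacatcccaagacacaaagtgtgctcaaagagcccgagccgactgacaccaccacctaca

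Ndufa4 was called through its incomplete reads. Its main transcript Ndufa4-205 had 714 of 863 reads in replicate 1, or 82.7%, and 181 of 249 in replicate 2, or 72.7%, a difference of -10.04 percentage points (Fisher's exact test, adjusted p = 0.00558). When incomplete matches and genomic reads were left out of the denominator, the difference was 0.0077 percentage points and the call was lost. The share of Ndufv3-202 still fell by 25.6 percentage points with that denominator.

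Ndufs1 had the lowest main share of genes with an annotated main transcript, because its first exons varied. Ndufs1-201 held 238 of 590 reads in replicate 1, or 40.3%, and 90 of 247 in replicate 2, or 36.4%. Ndufs1-203, which uses a donor 158 bases downstream, held 120 and 57 reads. The 2 most abundant new chains of all Nduf genes were also from Ndufs1, with 110 and 52 reads and with 61 and 22 reads. Both combine one of these donors with an extra exon of 104 bases at chr1:63172154-63172257 on the minus strand.

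That extra exon lies upstream of the start codon, so all 4 chains hold the same annotated coding sequence of 727 codons. It was entered in 32.9% of reads that reached the first coding exon in replicate 1 (interval 29.1 to 36.9) and 33.9% in replicate 2 (27.9 to 40.2). Of reads from the outer donor, 31.1% and 36.8% used it, and from the inner donor 33.3% and 26.7%. The intervals overlapped between donors and between libraries. The annotation holds the splice sites of the exon but not these full chains.

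Only 4 new chains of Nduf genes had at least 3 reads in both libraries, out of 255 new chains in all, of which 37 appeared in both and 189 had a single read. Besides the 2 of Ndufs1, a chain of Ndufab1, the mitochondrial acyl carrier protein, had 24 and 8 reads. It uses an unannotated acceptor 104 bases from the main one in the 3′ UTR, at 7.20% and 7.48% of reads from that donor. The fourth was a chain of Ndufb11 with an extra intron of the 5′ UTR, at 3 reads in each library. Of 199 unannotated junctions, 4 were seen with at least 3 reads in both libraries, against 225 of 274 annotated ones.

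Skipping of short coding exons was rare. Ndufa7, a matrix-arm subunit, left out its exon 2 (50 bases, chr17:33825601-33825650, plus strand) in 5.93% of reads from the exon 1 donor in replicate 1 (21 of 354) and 7.23% in replicate 2 (6 of 83). Ndufa6, which contacts the acyl carrier protein, left out exon 2 (116 bases, chr15:82350979-82351094, minus strand) in 4.80% (20 of 417) and 6.45% (6 of 93). Ndufs4, whose loss in mice gives a Leigh-like disease, left out exon 2 (79 bases, chr13:114351448-114351526, minus strand) in 2.27% (3 of 132) and 7.89% (3 of 38). The intervals of the libraries overlapped for each of the 3 genes.

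None of these 3 exons has a length that is a multiple of 3, unlike the long exon of Ndufv3. The annotated transcript without exon 2 of Ndufa7 is listed as a target of nonsense-mediated decay, whereas that of Ndufa6 is listed as protein coding with 72 codons in place of 131. The exons of Ndufa7 and Ndufa6 are printed in capitals with 30 flanking bases of the neighbouring exons, followed by the joined flanks of the skipped form.
Ndufa7 exon 2 included: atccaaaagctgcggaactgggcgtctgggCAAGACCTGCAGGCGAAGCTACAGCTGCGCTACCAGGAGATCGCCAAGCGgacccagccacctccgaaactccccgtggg
Ndufa7 exon 2 skipped: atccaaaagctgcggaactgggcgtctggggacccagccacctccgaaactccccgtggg
Ndufa6 exon 2 included: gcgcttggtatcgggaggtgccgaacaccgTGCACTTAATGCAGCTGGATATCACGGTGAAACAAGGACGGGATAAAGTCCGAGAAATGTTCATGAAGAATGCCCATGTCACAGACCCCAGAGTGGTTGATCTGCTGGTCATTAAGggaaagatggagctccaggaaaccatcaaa
Ndufa6 exon 2 skipped: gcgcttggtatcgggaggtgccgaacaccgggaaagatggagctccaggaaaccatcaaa

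In all, 11 Nduf genes used alternative splice sites with at least 3 reads in both libraries, and several of these lay in untranslated parts. In Ndufb2, a pair of donors 4 bases apart shared the intron after the stop codon, with the second used in 44.3% of reads in replicate 1 and 32.1% in replicate 2. In Ndufs8, a first-exon donor 243 bases from the main one was used in 14.4% and 17.3% of reads. In Ndufab1, a distal last exon was used in 8.93% and 14.02%. Ndufa7 also ended within an intron in the annotated model Ndufa7-204, with 58 and 10 reads.

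**Figure D4:**
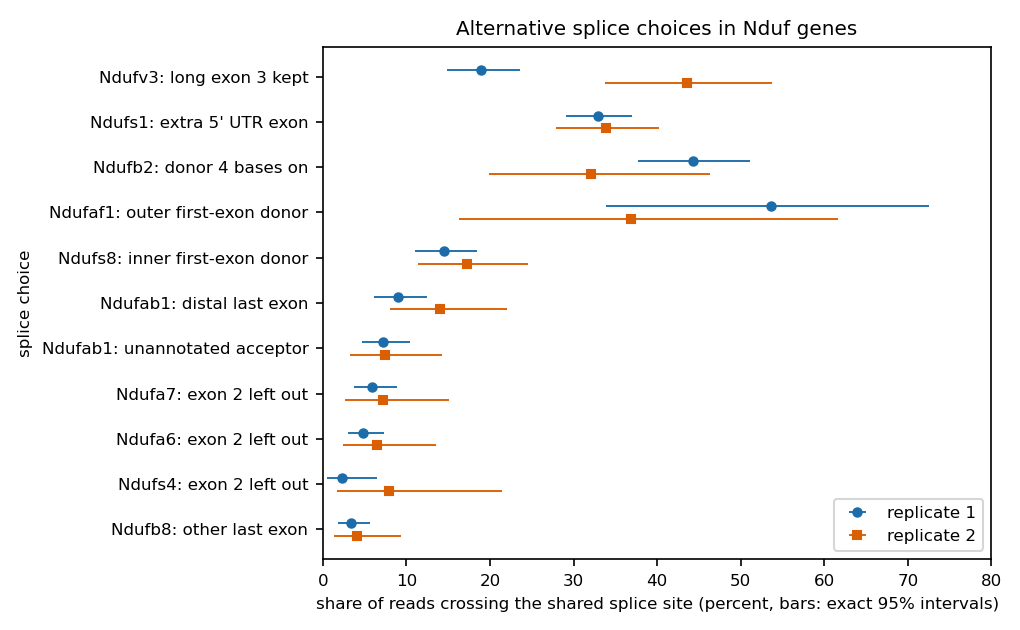
Share of reads (percent) that took the named splice choice, among reads crossing the shared donor or acceptor, in 2 libraries with exact 95% intervals. Only the Ndufv3 pair, at 19.0% and 43.6%, has intervals that do not overlap.

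Ndufa13, a membrane-arm subunit also known as GRIM-19, had no read in a complete annotated transcript. The annotated 5-exon transcript Ndufa13-201 begins with an exon of 678 bases at chr8:69901881-69902558 on the minus strand. In replicate 1, 418 of 425 reads (98.4%) began at exon 2, and in replicate 2 all 97 did (100%). The start codon lies in exon 2, so the deposited model holds the whole coding sequence of 144 codons. Where single reads begin within exon 2 is not given. The RefSeq start at position 69902020 also lies within the annotated first exon. Without Ndufa13, incomplete matches made up 6.41% of Nduf reads in replicate 1 and 6.11% in replicate 2.

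Without Ndufa13, 772 of 833 incomplete reads in replicate 1 (92.7%) and 230 of 244 in replicate 2 (94.3%) lacked 5′ exons. Over all 47 genes, 95.1% of incomplete reads in replicate 1 and 95.9% in replicate 2 lacked 5′ exons, and 1.91% and 1.47% lacked 3′ exons. Some genes piled up at 1 exon in both libraries. Ndufb3, a distal membrane-arm subunit, had its last exon alone in 86 of 193 reads (44.6%) and 41 of 70 (58.6%). Ndufs7 had exons 7 and 8 of 8 alone in 123 of 430 reads (28.6%) and 40 of 135 (29.6%).

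Ndufaf7 had its last exon alone, exon 10, in 16 of 86 reads (18.6%) and 6 of 23 (26.1%). Ndufa4 had exons 3 and 4 of 4 alone in 137 of 863 reads (15.9%) and 65 of 249 (26.1%). Whether a short read is a short RNA or a partial copy cannot be told apart in these files, and a deposited model gives 1 start for all its reads.

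The exon boundaries at which the short models begin are printed from the M21 transcripts (mm10), with the last 30 bases of the exon before in lower case and up to 90 coding bases of the first kept exon in capitals. Exon 7 of Ndufs7 spans chr10:80255924-80256012 (plus strand), exon 3 of Ndufa4 chr6:11905202-11905262 (minus strand), exon 3 of Ndufb3 chr1:58595649-58595964 (plus strand) and exon 10 of Ndufaf7 chr17:78946875-78947499 (plus strand). The GC content of these exons was 56.2%, 45.9%, 37.97% and 40.6%.
Ndufs7 exon 7 boundary: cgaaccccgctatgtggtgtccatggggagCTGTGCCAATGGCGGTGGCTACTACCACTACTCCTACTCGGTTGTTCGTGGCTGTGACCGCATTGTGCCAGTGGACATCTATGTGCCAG
Ndufa4 exon 3 boundary: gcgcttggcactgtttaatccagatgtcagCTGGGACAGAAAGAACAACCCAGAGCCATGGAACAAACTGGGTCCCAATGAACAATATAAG
Ndufb3 exon 3 boundary: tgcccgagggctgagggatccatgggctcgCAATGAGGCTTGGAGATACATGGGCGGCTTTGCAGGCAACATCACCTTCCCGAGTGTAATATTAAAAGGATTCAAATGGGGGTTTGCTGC
Ndufaf7 exon 10 boundary: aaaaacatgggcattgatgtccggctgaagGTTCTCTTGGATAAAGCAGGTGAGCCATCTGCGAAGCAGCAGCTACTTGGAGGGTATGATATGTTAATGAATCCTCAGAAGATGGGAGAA

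**Figure D5:**
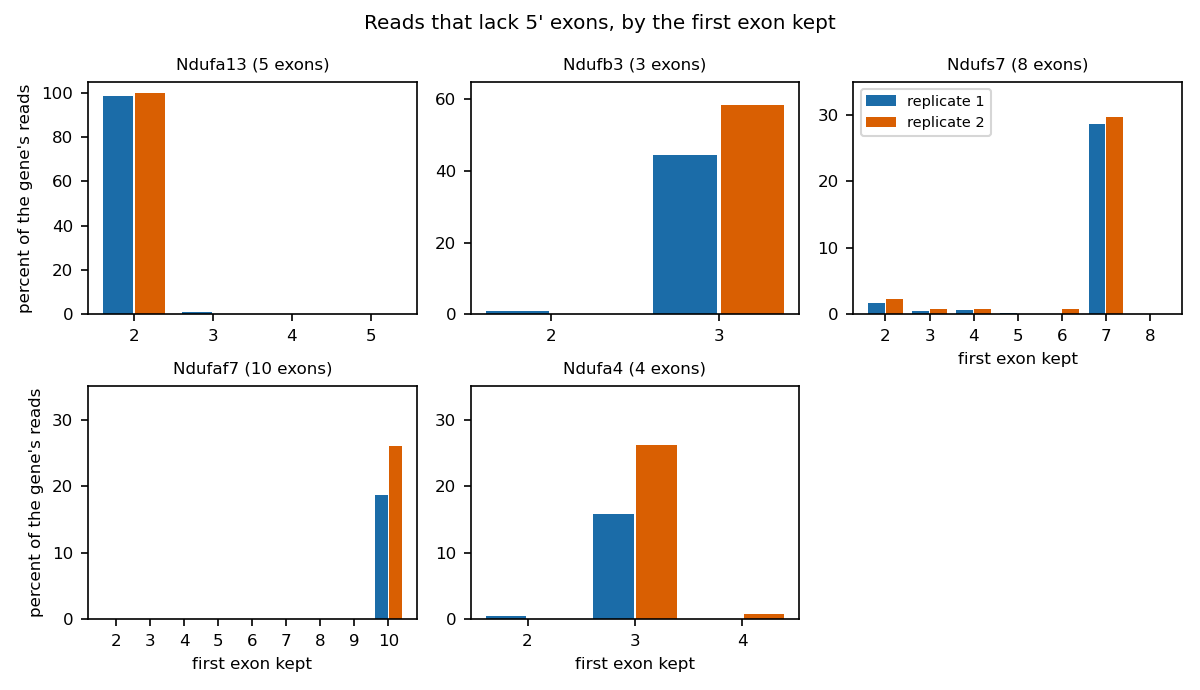
Percent of a gene's reads that lack 5′ exons and run to the last exon, by the first exon kept, for 5 Nduf genes in 2 libraries. Reads pile up at exon 2 of Ndufa13 (98.4% and 100%), exon 3 of Ndufb3 and exon 7 of Ndufs7.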

How the data were processed

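The authors deposited, per library, whole-number read counts per transcript model that were not normalised, and the matching models on mm10 with GENCODE M21, per the deposited readme files. For the aligner, the platform and the TALON version: not given in the sources used here. All 468 annotated Nduf models had the M21 exons. Counts were summed per gene over all classes and scaled as CPM. Spike-ins, new genes and mitochondrial genes stayed out of the totals. Fisher's exact test compared levels where both libraries summed to 10 reads or more, and shares where each held 50 or more. Log2 ratios used 0.5 added reads. P-values, SEs, intervals and floors cover counting error only. The tests were checked on data simulated with counting error alone, which cannot show how they behave when libraries vary more. Lengths are those of the most abundant model of any class, incomplete ones included (Ndufa13, 573 bases). For an annotated model, a long annotated end (Ndufb2, 4371 bases) can exceed the reads. Values of 1 gene are not reported here, though the counts and medians over lists include it. How reads shared with pseudogenes were placed is not given. Ndufb1-ps, left out by name, had 309 and 56 reads. The members, the lists and the rule for named genes (core subunits, extremes of level, called genes, assembly factors and shared new chains) were chosen with earlier results of these data known, and other named genes after their values were seen. Alternatives used edgeR 4.0.16 and DESeq2 1.42.0 factors, with an exact binomial test per gene. Analyses ran in Python 3.11.15 with SciPy 1.17.1.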

Additional observations from a re-analysis of the deposited data

How the results depend on the processing

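No paired analysis was possible because there is 1 group. TMM or median-of-ratios factors, run with an exact binomial test in place of Fisher's exact test, left 4 Nduf genes lower by 2-fold. Read minimums of 1 and 50 and 1 added read left 3 or 4 (Ndufaf8 was lost at a minimum of 1). Leaving out genomic reads gave 6 (3.93% of all genes). The count was 7 with annotated transcripts alone (4.35% of all genes). It was also 7 after thinning the deeper library (3.02%, with 3 of the 4 genes kept and Ndufs6 at -0.79). With no fold minimum it was 24 (8.58%). It was 0 after subtracting the median of genes of like length, where the share of all genes was not computed. The median log2 ratio then moved to -0.10, the core median reversed to 0.043 and the accessory median moved to -0.28. With incomplete and genomic reads out of the denominator, 1 of 29 genes was called for main share (0.795% of all genes), and the difference of Ndufa4 reversed to 0.0077 percentage points. Shared new chains numbered 37 at a minimum of 1 read, 2 at 10 reads and 0 by transcript ID, since IDs are specific to a library. The annotated share was 87.7% as a mean over genes and 89.1% without Ndufa13. Leaving out 1 library gave 8143 to 11089 CPM for the sum and 86.5 to 86.7% for the annotated share. Depth limits the assembly factors most, and with 1 library on each side no difference has a replicate check.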
